A study of Mus musculus with 47 samples.

Results

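The kidneys compared here came from NZO/HlLtJ males and C57BL/6J males that both ate the 10% fat and fiber diet, which the series description calls the control diet. These were 8 of the 47 libraries of the series, chosen by their labels for strain, sex and diet, with 4 libraries in each strain. All 8 came from kidney tissue, which the labels call metanephros, collected at 15 weeks of age from animals placed on the diet at 6 weeks, with no engineered allele and no drug. The other libraries were from females of these strains, from a diet with 44% fat and fiber, and from CAST/EiJ mice. NZO below means NZO/HlLtJ.

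NZO is an inbred strain in which many loci together give obesity and insulin resistance, and in which males often become diabetic. C57BL/6J is the strain from which the mouse reference genome was read. The kidney is built mainly from proximal tubules, which take back glucose, amino acids and phosphate and draw their energy from fatty acid oxidation, followed by the thick ascending limb, the distal convoluted tubule and the collecting duct. Male mouse kidneys express a large set of androgen-driven enzymes and carriers. The comparison asked which genes differed between the strains on the low fat diet, the state that the diet comparison of the series starts from. Body weight and blood glucose were not analysed here.

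The total count was 43919385 to 46891477 in the NZO libraries and 34394546 to 48075272 in the C57BL/6J libraries. Levels are counts-per-million values (CPM) from the deposited expected counts, and differences are log2 fold changes of NZO over C57BL/6J with their standard error (SE) and the adjusted p of edgeR's quasi-likelihood test over 18786 genes. A gene is called where that adjusted p was under 0.05. CPM is not corrected for gene length, so it was compared between libraries and not between genes. Nothing in the labels ties the libraries to separate animals, and a p-value here is set against the spread between libraries, which may be technical. Sample ID numbers fell into 3 runs that the labels do not explain. NZO libraries 1 and 2 and C57BL/6J library 1 were in the run starting at 77, C57BL/6J library 2 was in the run at 81, and libraries 3 and 4 of both strains were in the run at 89.

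A large part of the kidney transcriptome differed between the strains. Of 18786 genes tested, 5250 were called (27.9%), 2671 higher in NZO (14.2%) and 2579 lower (13.7%). When the 8 libraries were fitted alone 3157 were called, 1506 higher and 1651 lower. The median log2 fold change over all genes was -0.00101, close to 0. The median size among called genes was 0.50 on the log2 scale, and 579 higher and 810 lower genes passed a 2-fold difference. The 4 libraries of one strain lay wholly above or below the 4 of the other for 4947 genes (26.3%), 2429 of them higher and 2518 lower in NZO. In the 2 runs that held both strains, 99% of the 5227 called genes that could be fitted in both kept their direction in each run alone, where 2758 genes were called in the run at 89 (2 libraries against 2) and 912 in the run at 77 (2 against 1). Both runs consist of libraries from the fit that gave the calls, so the shared direction was largely set in advance and is not a separate test. Of the 5250 calls, 3277 held whichever of the 8 libraries was left out. Counts were also simulated for this comparison with 50 genes changed at each fold. On these the test recovered 42% of the 1.25-fold changes and 86% of the 1.5-fold changes. The changed genes were drawn from those with a mean log2 CPM of at least 1, so changes at lower levels were not tried. The simulated counts gave 167 calls in all, against 5250 here, so their adjusted cut-off was stricter. The recovered shares therefore do not give the share of small differences that this comparison missed.

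**Figure D1:**
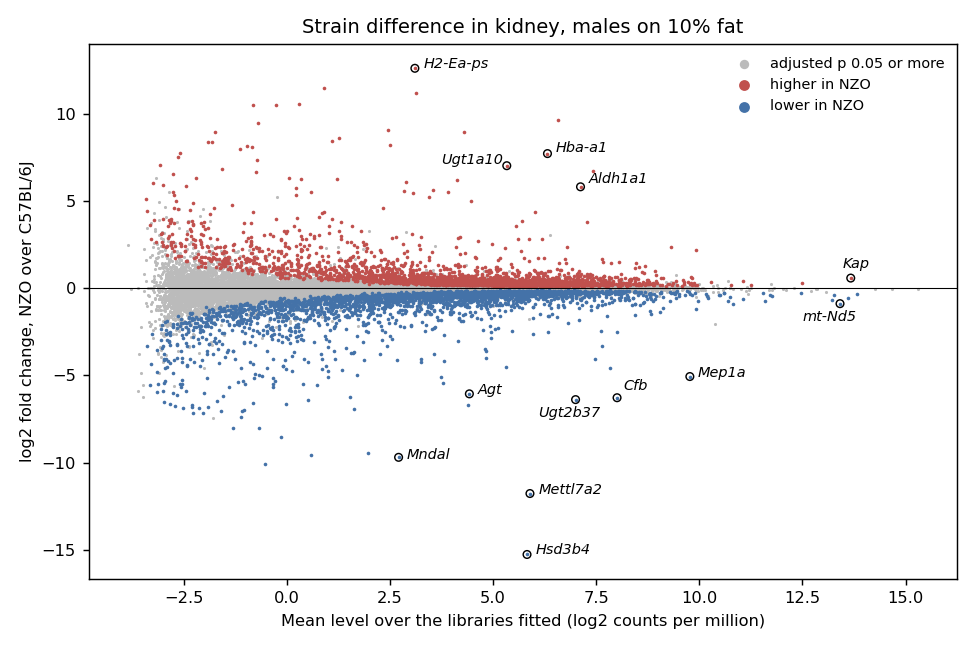
Log2 fold change of NZO over C57BL/6J (vertical axis) against the mean level in log2 CPM over the libraries fitted (horizontal axis) for the 18786 genes tested in males on 10% fat, with genes called higher in red, genes called lower in blue and 13 genes named. The 2671 higher and 2579 lower genes lie on both sides of 0 across the range of levels, and the fitted values of Hsd3b4 and H2-Ea-ps, which had no count in one strain, are not measured folds.

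The widest differences between the strains included genes that one strain barely expressed and genes well measured in both. Mep1a, a metalloprotease of the proximal tubule brush border (meprin alpha, at 17:43474324-43502812 in GRCm38), had 50.2, 68.4, 66.7 and 62.9 CPM in NZO, against 2040, 2000, 2270 and 1970 CPM in C57BL/6J. Every NZO library was far below every C57BL/6J library (log2 fold change -5.06, SE 0.13, adjusted p 7.24e-29 by edgeR's quasi-likelihood test). Low brush border meprin is a known trait of some inbred mouse strains. Aldh1a1, a retinaldehyde dehydrogenase that makes retinoic acid, went the other way, with 214, 184, 206 and 228 CPM in NZO, against 3.85, 3.45, 3.60 and 4.29 CPM in C57BL/6J. Its log2 fold change was 5.80 (SE 0.15, adjusted p 8.61e-28), again with no overlap between the strains.

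Ptpn22, a tyrosine phosphatase that dampens lymphocyte receptor signalling, had 135, 98.1, 91.6 and 128 CPM in NZO, against 3.36, 2.39, 3.22 and 4.84 CPM in C57BL/6J. Its log2 fold change was 4.99 (SE 0.26, adjusted p 2.49e-17). None of 9 T cell markers and none of 11 B and plasma cell markers was called in the same test, against 27.9% of all genes. At an unadjusted p under 0.05 these were 2 and 0. The log2 values of all 9 T cell markers were below 0 (median -0.60), and limma-voom called 1 of them lower while DESeq2 called 0. They summed to 2.32 to 3.99 CPM in NZO and 3.72 to 5.11 CPM in C57BL/6J. In whole kidney, fewer cells of a type and less RNA per cell cannot be told apart. Angptl7, a secreted angiopoietin-like protein, was at 186 ± 44.1 CPM in NZO and 9.35 ± 2.96 CPM in C57BL/6J (SD, n = 4 each), a log2 fold change of 4.36 (adjusted p 8.49e-12). Cpb2, the carboxypeptidase that slows clot lysis, averaged 37.9 ± 3.75 CPM in NZO and 0.822 ± 0.202 CPM in C57BL/6J (log2 fold change 5.51). Greb1, an oestrogen-regulated gene, and Cacna2d2, an auxiliary calcium channel subunit, each averaged 12.4 CPM in NZO and under 1 CPM in C57BL/6J, with log2 fold changes of 5.45 and 5.19. Zfp365 (5.34), Snap91, a vesicle coat protein of nerve cells (4.58), and Mybpc3, a myosin binding protein of heart muscle (6.24), were near absent in C57BL/6J and at 4.56 to 6.27 CPM on average in NZO.

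Among the genes lowest in NZO, Atp4a, the catalytic subunit of the proton and potassium pump, had 0.760, 1.01, 0.456 and 1.22 CPM in NZO, against 31.1, 31, 30.2 and 30.0 CPM in C57BL/6J. The C57BL/6J libraries were nearly equal and all above NZO (log2 fold change -5.11, SE 0.18, adjusted p 2.77e-24). Cyp2c44, an enzyme that makes epoxides of arachidonic acid in the kidney, averaged 0.999 ± 0.0409 CPM in NZO and 18 ± 4.07 CPM in C57BL/6J (log2 fold change -4.14). Gfra1, the receptor subunit for the growth factor GDNF, fell by 4.10 on the log2 scale in NZO, and Trim12a, an antiviral protein of the tripartite motif family, by 4.09. Car3, a carbonic anhydrase abundant in fat cells, had 2.74, 0.682, 0.615 and 0.559 CPM in NZO, against 62.0, 28.9, 39.8 and 54.8 CPM in C57BL/6J (log2 fold change -5.40, adjusted p 6.57e-08). The fat cell markers Adipoq and Cfd were also highest in NZO library 1 and in C57BL/6J library 1, at 0.691 and 0.575 CPM in that NZO library and 2.02 and 4.06 CPM in that C57BL/6J library. The part of attached fat in the Car3 difference was not tested. The 8 adipocyte markers summed to 32.5 to 37.4 CPM in NZO and 38.1 to 48.6 CPM in C57BL/6J. These ranges did not overlap, with an exact permutation p of 0.0286 (0.0714 adjusted over 20 measures). The log2 values of 7 of the 8 markers were below 0 and that of 1 was above (median -1.39). Cfd was the only one called (adjusted p 0.0125, not called without C57BL/6J library 1), 12.5% of them against 27.9% of all genes.

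Several of the widest differences concerned genes with near-identical copies, for which the counting could place reads on either copy. Shared sequence was measured as the percentage of a gene's 31-base words that also occur in another gene's transcripts. Genes sharing 80% or more made up 659 of the tested genes, of which 190 were called (28.8%), close to the 28.1% of the 15522 genes sharing under 20%. Differences over 4-fold were called for 14.1% of the highly shared genes and for 2.31% of the genes with little sharing. In 5 pairs 1 copy was called far higher in NZO, the other had a negative log2 fold change, and their sum was not called. Pgk1-rs7, a processed copy of the glycolytic enzyme gene Pgk1, averaged 265 ± 43.7 CPM in NZO and 2.50 ± 0.723 CPM in C57BL/6J, and Pgk1 itself 260 ± 21.6 CPM in NZO and 487 ± 19.1 CPM in C57BL/6J. The sum of both was 525 CPM in NZO and 489.5 CPM in C57BL/6J, with an adjusted p of 0.238 when the copies were summed before the edgeR quasi-likelihood fit.

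Among the other pairs were the alpha globins, where Hba-a1 had a log2 fold change of 7.71 alone and the sum with Hba-a2 had 0.55 (adjusted p 0.145). Tpm3-rs7 had 11 counts over the 4 C57BL/6J libraries and 6444 over the 4 NZO libraries, whereas tropomyosin Tpm3 with it summed to 107 CPM in NZO and 111 CPM in C57BL/6J (adjusted p 0.392). Hist2h2aa2 had 5 counts in C57BL/6J and 3249 in NZO, and the sum with Hist2h2aa1, which codes for the same histone, was 28.7 CPM in NZO and 32.7 CPM in C57BL/6J (adjusted p 0.214). Rnaset2a had a log2 fold change of 4.38, and its sum with Rnaset2b, the other copy of this ribonuclease gene, one of -0.12 (adjusted p 0.257). Copy summing was tried after the values were seen.

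For other families the sum of the copies also differed. Hsd3b4, a hydroxysteroid dehydrogenase of the male kidney at 3:98499071-98510514, had no count in the 4 NZO libraries and 101, 134, 105 and 85.3 CPM in C57BL/6J. Against a floor of 3 counts per library the NZO level was at least 1507-fold lower. Its neighbour Gm10681, a predicted gene that shares sequence with it, had 16.6, 13.3, 12.9 and 11.6 CPM in NZO, against 322, 422, 313 and 255 CPM in C57BL/6J, and the fit of their sum gave -5.01 on the log2 scale (SE 0.19, adjusted p 4.26e-22). Hsd3b2, another gene of this family on the same chromosome, was 2.71-fold higher in NZO, at 635 ± 107 CPM in NZO and 230 ± 32.5 CPM in C57BL/6J. Mettl7a2 had 5 counts in the 4 NZO libraries together and 16842 in the 4 C57BL/6J libraries, and the overlapping gene Methig1 had 3 and 2003, a ratio in CPM of 746 with a counting interval of 255 to 3616 at 95%. Mettl7a1, their near copy, was lower by only 0.39 on the log2 scale, and the group of 4 genes summed to 311 CPM in NZO and 531 CPM in C57BL/6J (log2 fold change -0.76, adjusted p 2.02e-11). The reference sequence is that of C57BL/6J, and the number of sequence variants that NZO carries in each gene was not measured here, so reads lost at variant sites and lower expression cannot be told apart.

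**Figure D2:**
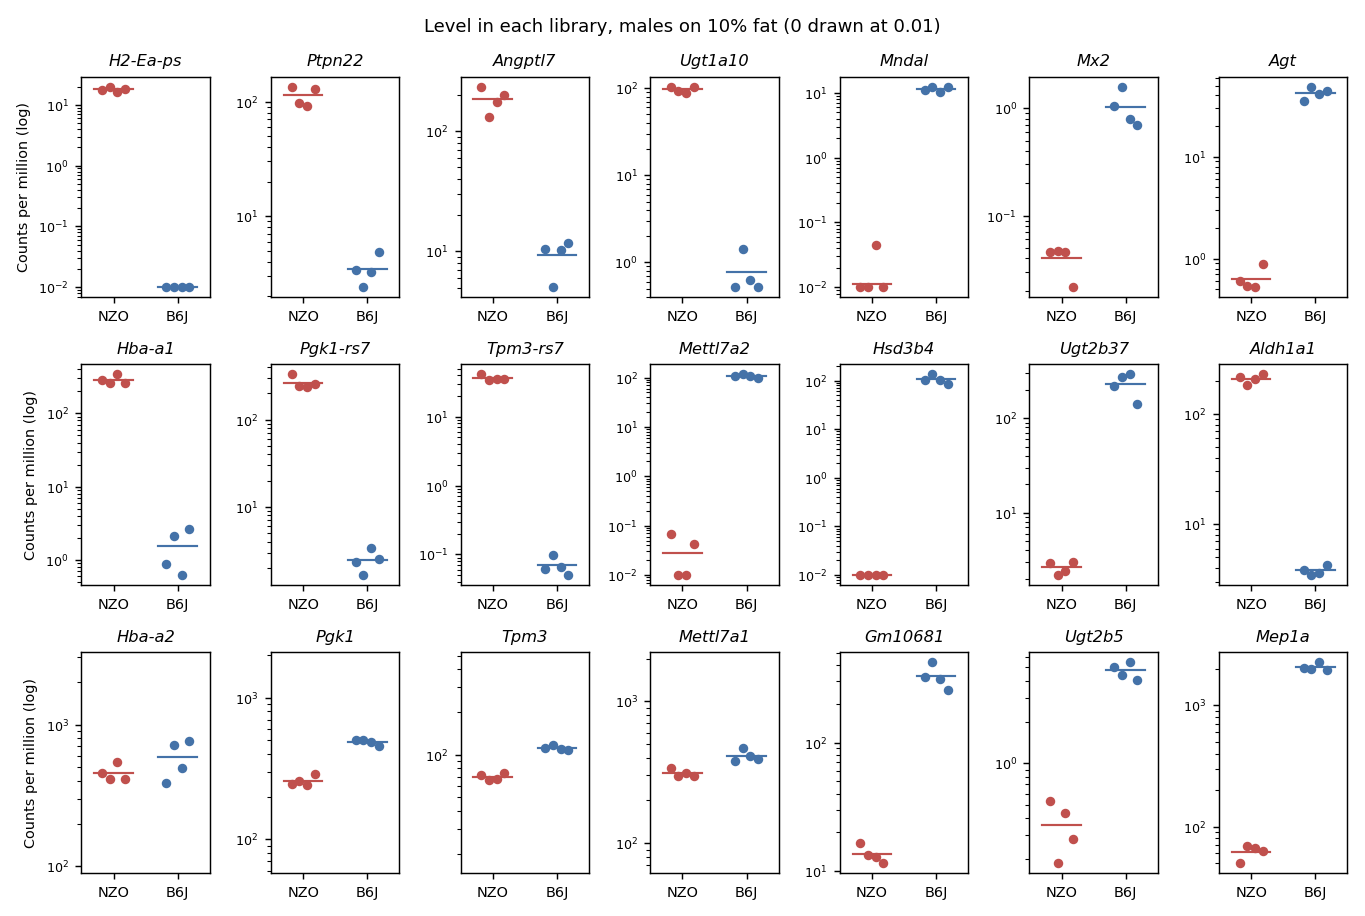
CPM of 21 genes in each library of males on 10% fat, on a log axis that differs between panels, with NZO left of C57BL/6J (B6J), 1 point per library, a line at the mean and counts of 0 drawn at 0.01. In every panel but that of Hba-a2 the 4 libraries of one strain lie apart from the 4 of the other, and the near copies Hba-a1, Pgk1-rs7 and Tpm3-rs7 are nearly empty in C57BL/6J.

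The list of genes with a known defective allele in C57BL/6J held 8, of which 4 were tested. All 4 were called (27.9% of all genes). H2-Ea-ps, the class II antigen chain whose promoter is deleted in C57BL/6J, had 17.6, 19.9, 16.4 and 17.9 CPM in NZO and no count in C57BL/6J, at least 196-fold higher in NZO against a floor of 3 counts per library. Nnt, the mitochondrial proton-pumping transhydrogenase in which C57BL/6J lacks several exons, had 206, 200, 196 and 200 CPM in NZO, against 125, 138, 123 and 130 CPM in C57BL/6J (log2 fold change 0.64, SE 0.06, adjusted p 8.51e-12). The influenza resistance genes Mx1 and Mx2, both defective in C57BL/6J, went in opposite directions. Mx1 averaged 3.16 ± 0.728 CPM in NZO and 0.585 ± 0.194 CPM in C57BL/6J, and Mx2 0.0400 ± 0.0124 CPM in NZO and 1.03 ± 0.398 CPM in C57BL/6J.

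Of 8 tested genes reported as candidates in obesity and diabetes crosses with NZO, 3 were called (27.9% of all genes). The immunity-related GTPase genes Gm4951 and F830016B08Rik, also named Ifgga2 and Ifgga4, were at 0.115 and 0.0346 CPM on average in NZO and at 2.83 and 3.17 CPM in C57BL/6J, with log2 fold changes of -4.71 and -6.61. The libraries of the strains did not overlap for either gene. The leptin receptor Lepr (log2 fold change -0.17), the sterol exporter Abcg1 (0.15), the phosphatidylcholine carrier Pctp (0.08), the Rab regulator Tbc1d1 (-0.14) and Zfp69 (0.03) were not called, with adjusted p from 0.0725 to 0.955 by edgeR's quasi-likelihood test.

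The complement system, a cascade of blood and tissue proteins that tags and lyses targets, had 16 of 21 tested members called (27.9% of all genes), 5 higher and 11 lower in NZO. The median over the 21 genes was -0.43 on the log2 scale. Within one stretch of chromosome 17 the changes went both ways. Cfb, factor B of the alternative pathway, had 5.29, 4.68, 5.47 and 6.36 CPM in NZO, against 417, 397, 428 and 452 CPM in C57BL/6J. Its log2 fold change was -6.27 (SE 0.17, adjusted p 2.16e-27), and the adjoining C2, the classical pathway protease, averaged 2.04 ± 0.766 CPM in NZO and 24.9 ± 2.78 CPM in C57BL/6J (-3.59, SE 0.16). Cfb shares 75.5% of its sequence words with a record that spans it and C2, so reads of these 3 records are not fully separable.

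C4a and C4b lie beside them and were higher in NZO. C4b had 123, 80.7, 93.4 and 152 CPM in NZO, against 14.4, 18.1, 16.4 and 22.1 CPM in C57BL/6J (log2 fold change 2.70, SE 0.22, adjusted p 4.06e-12). C4a, a close copy whose product is best known as sex-limited protein, had 75.7, 67.8, 63.5 and 67.1 CPM in NZO, against 2.02, 0.845, 0.999 and 1.73 CPM in C57BL/6J, and the sum of both copies had a log2 fold change of 3.25 (adjusted p 4.39e-16). C3, the component at which the pathways meet, had 55.3, 41.4, 46.2 and 68.7 CPM in NZO, against 28.8, 22.8, 26.9 and 30.3 CPM in C57BL/6J (0.96, SE 0.27, adjusted p 0.0065). Cfi, the protease that inactivates C3b and C4b, was 2.69-fold higher. The C1 inhibitor Serping1 (-0.43) and C1qb (-0.57) were lower, and C1qb was not called in 3 of the 8 fits that leave out 1 library.

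The major histocompatibility genes, which display peptides to T cells, were mostly lower in NZO. Of 21 class I and antigen processing genes 12 were lower (13.7% of all genes) and 1 higher, with a median of -0.43. H2-K1 had 58.5, 55.9, 49.8 and 57.7 CPM in NZO, against 155, 162, 154 and 166 CPM in C57BL/6J (log2 fold change -1.58, SE 0.17, adjusted p 1.39e-09). H2-Q4, H2-Q6 and H2-Q7, which share part of their sequence with each other, summed to 8.71 ± 1.44 CPM in NZO and 64.9 ± 7.12 CPM in C57BL/6J (SD, n = 4 each), and the summed fit gave -2.96 (adjusted p 2.75e-14). The light chain B2m was lower by 0.40 on the log2 scale (adjusted p 0.0248, not called in 4 of the 8 fits that leave out 1 library), and H2-D1 by 0.35 (not called in 3 of 8). Nlrc5, the activator of class I genes, averaged 3.24 ± 0.819 CPM in NZO and 6.70 ± 1.83 CPM in C57BL/6J (-1.13, adjusted p 0.00379). H2 genes are among the most variable between inbred strains.

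Of 11 class II genes 5 were lower (13.7% of all genes) and 1, H2-Ea-ps, was higher in NZO. H2-Ab1 had 23.2, 22.3, 20.5 and 24.1 CPM in NZO, against 52.9, 58.6, 55.7 and 69.8 CPM in C57BL/6J (log2 fold change -1.47, SE 0.25, adjusted p 2.49e-05). H2-Aa was lower by 0.86 and the peptide loading gene H2-DMb1 by 1.47 on the log2 scale. Ciita, the activator of class II genes, averaged 2.63 ± 0.390 CPM in NZO and 5.51 ± 1.55 CPM in C57BL/6J (-1.12, adjusted p 0.0116), and was not called without C57BL/6J library 4. The macrophage markers summed to 103 to 119 CPM in NZO and 109 to 116 CPM in C57BL/6J, with an exact permutation p of 1. Of these 11 markers Adgre1 (-0.98) and C1qb (-0.57) were lower and Csf1r (0.27) and Cd14 (0.69) higher, 36.4% called against 27.9% of all genes. The log2 values of 9 of the 11 were below 0 and of 2 above (median -0.46), so the similar sums do not describe the list. Of the 8 fits that leave out 1 library, Cd14 was not called in 6, C1qb in 3 and Csf1r in 2.

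Interferon-stimulated genes, the antiviral programme that cells switch on through STAT proteins and interferon regulatory factors, were lower as a group. Of 53 tested, 30 were lower and 1, Mx1, was higher, with a median of -0.62, whereas 13.7% of all genes were lower. Interferon genes commonly carry a short promoter element, GAAANNGAAA or TTTCNNTTTC on the other strand, to which these factors bind. The element was searched on both strands in the 250 bases before the RefSeq start of each gene in GRCm38.p6, and overlapping matches were allowed. Promoters of 3 lowered interferon genes are shown in the C57BL/6J reference, 5′ to 3′ on the gene's strand, with each match in capitals. They are Ifit3 at chr19:34583279-34583528 on the plus strand, Gbp2 at chr3:142620413-142620662 on the plus strand and Mndal at chr1:173880188-173880437 on the minus strand.
Ifit3: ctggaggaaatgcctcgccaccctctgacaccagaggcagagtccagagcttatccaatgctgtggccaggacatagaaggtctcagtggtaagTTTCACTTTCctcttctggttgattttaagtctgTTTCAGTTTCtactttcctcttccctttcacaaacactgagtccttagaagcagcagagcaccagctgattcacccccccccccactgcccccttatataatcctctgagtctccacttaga
Gbp2: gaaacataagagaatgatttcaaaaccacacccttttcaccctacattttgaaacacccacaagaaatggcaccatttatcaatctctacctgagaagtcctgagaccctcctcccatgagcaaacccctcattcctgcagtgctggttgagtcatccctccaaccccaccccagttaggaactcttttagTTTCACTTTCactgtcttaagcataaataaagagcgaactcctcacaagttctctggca
Mndal: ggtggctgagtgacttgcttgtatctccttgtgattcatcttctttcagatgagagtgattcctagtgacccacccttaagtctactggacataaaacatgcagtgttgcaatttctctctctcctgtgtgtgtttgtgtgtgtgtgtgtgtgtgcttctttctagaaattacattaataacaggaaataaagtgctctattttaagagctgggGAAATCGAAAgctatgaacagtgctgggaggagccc

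The Ifit3 matches start 156 and 122 bases before the gene's start, that of Gbp2 59 bases and that of Mndal 36 bases before it. Of the 53 interferon genes tested 33 had a promoter entry, and 12 of 15 that were lower and 8 of 18 that were not called held a match. Over all promoters 821 of 27025 did (3.04%). Among all genes with an entry, 73 of 1755 that were lower in NZO held a match (4.16%) and 32 of 1909 that were higher (1.68%). A match describes the letters of the reference sequence and not a bound site.

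Ifit3, which blocks viral RNA, had 5.62, 5.57, 7.43 and 6.15 CPM in NZO, against 16.3, 23.8, 17.7 and 21.0 CPM in C57BL/6J (log2 fold change -1.67, SE 0.14, adjusted p 1.35e-12). Gbp2, a guanylate-binding protein that attacks vacuoles of intracellular microbes, had 5.43, 5.53, 6.99 and 5.01 CPM in NZO, against 15.7, 15.9, 14.2 and 16.7 CPM in C57BL/6J (-1.53, SE 0.24, adjusted p 4.12e-06). For both genes every NZO library was below every C57BL/6J library. Gbp6 and Gbp10, which share sequence, summed to 8.10 ± 0.876 CPM in NZO and 40.9 ± 7.40 CPM in C57BL/6J (-2.52, adjusted p 8.85e-08). Rsad2, the antiviral enzyme viperin, averaged 22.2 ± 3.89 CPM in NZO and 38.6 ± 6.12 CPM in C57BL/6J (-0.81). The immunity-related GTPases Iigp1 (-1.96), Igtp (-1.04) and Irgm1 (-0.59) were lower.

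Part of the list is the Ifi200 family of DNA sensors on chromosome 1, whose gene content varies between strains. Mndal had 2 counts in the 4 NZO libraries together and 1818 in the 4 C57BL/6J libraries, a ratio of C57BL/6J to NZO in CPM of 1015 with a counting interval of 281 to 8383 at 95%. Pydc4, now Ifi213, had 6 and 471 counts. Ifi203 averaged 7.59 ± 0.802 CPM in NZO and 26.1 ± 3.21 CPM in C57BL/6J (-1.76). The regulator Irf1 was lower by 0.52 with overlapping groups. Among the genes not called were Isg15 (-0.07), Ifit2 (0.13), Irf7 (-0.24), Stat2 (-0.13) and Ifih1 (0.01).

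**Figure D3:**
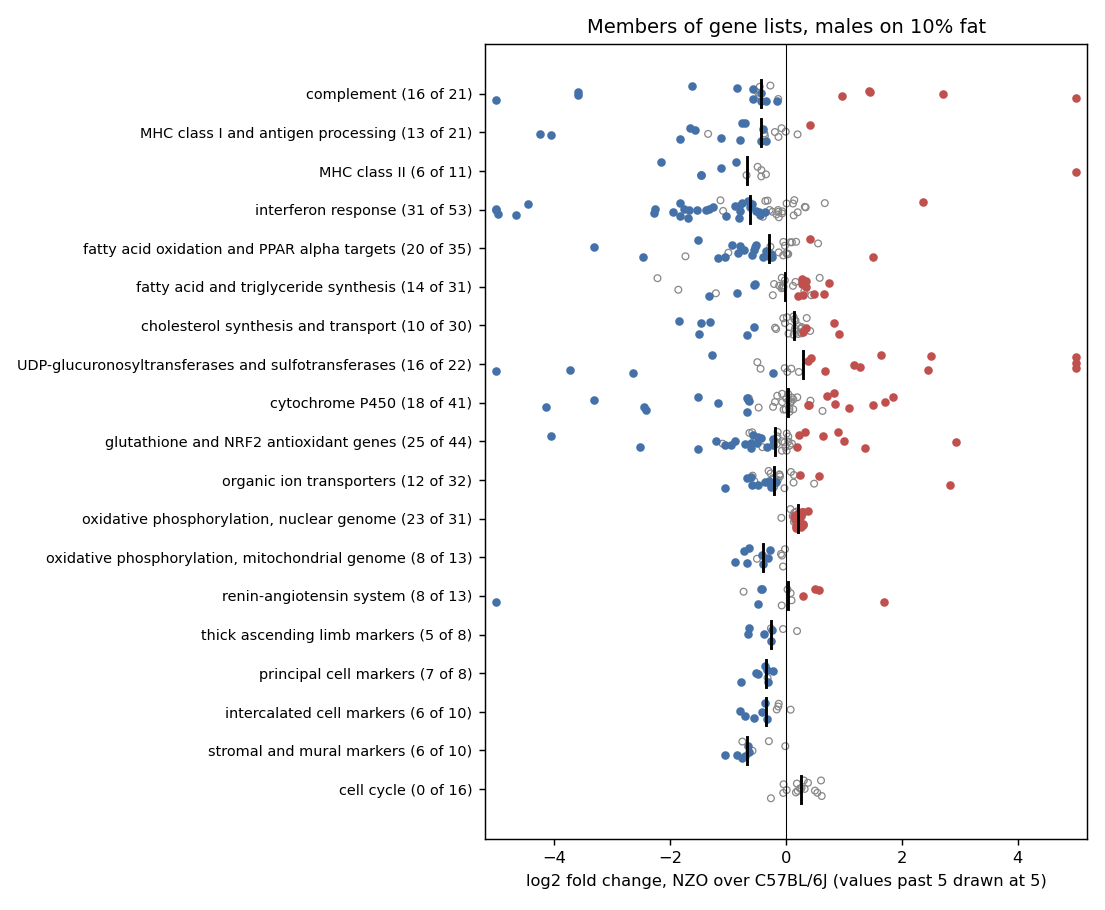
Log2 fold change of NZO over C57BL/6J in males on 10% fat for each member of 19 gene lists, with called genes filled (red higher, blue lower), other genes open, the list's median as a bar, and called of tested genes in brackets. The interferon list has 30 lower and 1 higher of 53 tested, and the nuclear oxidative phosphorylation list 23 higher and 0 lower of 31. Over all genes 14.2% were higher and 13.7% lower.

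In the renin-angiotensin system the substrate gene differed far more than the enzymes and receptors. Angiotensinogen, the precursor from which renin and then the converting enzyme Ace cut angiotensin II, is made mainly in liver and also in the proximal tubule. Agt, at 8:124556534-124569706, had 0.598, 0.541, 0.524 and 0.881 CPM in NZO, against 35.3, 48.8, 40.9 and 43.8 CPM in C57BL/6J. No NZO library came near the C57BL/6J range, and the log2 fold change was -6.05 (SE 0.26, adjusted p 2.81e-20). Ren1, renin, had 38.9, 44.9, 56.5 and 53.0 CPM in NZO, against 29.9, 39.2, 35.2 and 34 CPM in C57BL/6J, groups that overlap by NZO library 1 (0.50, SE 0.12, adjusted p 0.00145). Ace was lower, at 329 ± 22.9 CPM in NZO and 437 ± 51.4 CPM in C57BL/6J (-0.41, adjusted p 0.00239).

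The peptidases that clear angiotensins moved in both directions. Enpep, which trims angiotensin II, was higher at 276 ± 11.5 CPM in NZO and 189 ± 7.79 CPM in C57BL/6J (0.56, adjusted p 9.75e-10), and neprilysin Mme was lower at 166 ± 12.7 CPM in NZO and 235 ± 24.6 CPM in C57BL/6J (-0.48, adjusted p 0.00109). Mas1, the receptor of angiotensin 1-7, was 3.24-fold higher in NZO, at 4.10 ± 0.745 CPM in NZO and 1.22 ± 0.437 CPM in C57BL/6J. The angiotensin II receptor Agtr1a was not called (0.09, adjusted p 0.322), and the mineralocorticoid receptor Nr3c2 was lower (-0.43, adjusted p 0.00169). In all 8 of 13 tested genes of the system were called (27.9% of all genes), 4 in each direction.

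Among carriers of the proximal tubule, changes were moderate and went both ways. Slc34a1, the main phosphate carrier, had 3900, 3620, 3240 and 3570 CPM in NZO, against 4860, 4750, 5170 and 5140 CPM in C57BL/6J (log2 fold change -0.47, SE 0.07, adjusted p 1.19e-06). Slc2a5, the fructose carrier, had 117, 94.4, 113 and 126 CPM in NZO, against 58.5, 53.9, 51.4 and 47.9 CPM in C57BL/6J (1.05, SE 0.19, adjusted p 6.37e-05). The groups did not overlap for either gene. Of 26 amino acid carriers 6 were higher and 5 lower, 42.3% called against 27.9% of all genes. The glycine carrier Slc6a18 was 1.49-fold higher and the peptide carrier Slc15a2 1.72-fold higher, whereas Slc7a8, a basolateral exchanger of neutral amino acids, averaged 73.6 ± 3.75 CPM in NZO and 217 ± 10.3 CPM in C57BL/6J (-1.58, SE 0.10, adjusted p 4.51e-17).

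Of 32 organic ion carriers 9 were lower and 3 higher (27.9% called over all genes). Slc22a12, the urate carrier Urat1, fell to 891 ± 138 CPM in NZO, against 1318 ± 23.6 CPM in C57BL/6J (-0.59). Abcb1b, a multidrug efflux pump, had 37.7, 36.9, 37.1 and 42.0 CPM in NZO, against 4.18, 7.93, 4.93 and 5.32 CPM in C57BL/6J (2.83, SE 0.27, adjusted p 2.28e-10). Slc2a2, the basolateral glucose carrier, had a log2 fold change of -0.14 and was not called (adjusted p 0.414), and Fbp2, a muscle type fructose bisphosphatase, was higher (0.77, adjusted p 3.35e-07). In the phosphate and vitamin D list 7 of 18 genes were called (38.9%, against 27.9% of all genes). Cyp27b1, which makes active vitamin D, averaged 3.78 ± 1.66 CPM in NZO and 1.07 ± 0.706 CPM in C57BL/6J with overlapping groups (1.84, adjusted p 0.0465), and was not called in 6 of the 8 fits that leave out 1 library.

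Fatty acid oxidation is the main fuel pathway of the proximal tubule and is under control of the nuclear receptor PPAR alpha. Of 35 genes of oxidation and PPAR alpha control, 18 were lower in NZO (13.7% of all genes) and 2 higher, with a median of -0.29 on the log2 scale. Plin2, the coat protein of lipid droplets, had 13.7, 11.2, 11.3 and 12.3 CPM in NZO, against 75.6, 71.9, 56.1 and 67.3 CPM in C57BL/6J. It had the smallest adjusted p of the list (log2 fold change -2.46, SE 0.13, adjusted p 1.31e-18), and the groups were far apart. Cyp4a10, a fatty acid omega hydroxylase and classic PPAR alpha target, had 60.4, 71.9, 97.2 and 71.2 CPM in NZO, against 222, 260, 149 and 219 CPM in C57BL/6J (-1.52, adjusted p 3.5e-05).

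The mitochondrial enzymes changed less. Cpt1a, which commits fatty acids to oxidation, averaged 415 ± 16.3 CPM in NZO and 531 ± 53.3 CPM in C57BL/6J (-0.35, adjusted p 0.0029). Cpt2 (-0.56), the dehydrogenase Acadl (-0.54) and the thiolase Acaa2 (-0.79) were lower, as was the fatty acid uptake protein Cd36 (-0.60). Eci1 (0.40) and Cyp4a12a (1.5) were higher. Cyp4a12a, an androgen-driven hydroxylase, had 619, 559, 550 and 475 CPM in NZO, against 279, 76.7, 189 and 230 CPM in C57BL/6J.

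In fatty acid and triglyceride synthesis 10 of 31 genes were higher and 4 lower (14.2% and 13.7% of all genes), with a median of -0.02. Fads1, a desaturase, averaged 129 ± 9 CPM in NZO and 81 ± 5.71 CPM in C57BL/6J (0.66, SE 0.08, adjusted p 8.52e-09). The elongase Elovl5 (0.47) and the desaturase Scd1 (0.73, adjusted p 0.00848) were also higher. Lpl, which frees fatty acids from lipoproteins, had 465, 460, 436 and 293 CPM in NZO, against 1380, 752, 979 and 1070 CPM in C57BL/6J (-1.34, SE 0.32, adjusted p 0.00134).

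Cholesterol synthesis showed steps that went opposite ways. Of 30 genes 4 were higher and 6 lower (27.9% called over all genes). Hmgcs1, which makes the building block of the pathway, had 281, 303, 266 and 298 CPM in NZO, against 816, 780, 861 and 771 CPM in C57BL/6J (log2 fold change -1.48, SE 0.08, adjusted p 2.2e-18). The isomerase Idi1 (-1.50, adjusted p 4.47e-09) and the desaturase Sc5d (-1.85, adjusted p 5.38e-20) were lower as well. Cyp51, the lanosterol demethylase, was higher in every NZO library, at 637, 524, 477 and 503 CPM, against 364, 290, 284 and 250 CPM in C57BL/6J (0.83, SE 0.09, adjusted p 8.35e-10). Sqle, the squalene epoxidase, was not called (0.16, adjusted p 0.426). Apob, the structural protein of secreted lipoproteins, fell to 249 ± 70.3 CPM in NZO, against 628 ± 66.5 CPM in C57BL/6J (-1.31, adjusted p 9.02e-07).

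Conjugating enzymes differed in opposite directions within one family. The Ugt1a genes on chromosome 1 are alternative first exons spliced to common later exons, and code for enzymes that attach glucuronic acid to bilirubin, steroids and drugs. Ugt1a10 had 104, 93.1, 87.6 and 102 CPM in NZO, against 0.519, 1.42, 0.622 and 0.527 CPM in C57BL/6J (log2 fold change 7.01, SE 0.30, adjusted p 1.02e-19). Ugt1a7c went the other way, with 168, 141, 136 and 137 CPM in NZO, against 334, 372, 361 and 362 CPM in C57BL/6J (-1.28, SE 0.13, adjusted p 4.36e-10). The groups were apart for both. Reads in the common exons can be placed on any of these genes, and the sum, which does not depend on that placement, was 284 ± 24.7 CPM in NZO and 371.5 ± 16.1 CPM in C57BL/6J (-0.37, SE 0.08, adjusted p 0.000561).

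In the Ugt2b family Ugt2b37 had 2.92, 2.19, 2.44 and 3.03 CPM in NZO, against 219, 271, 292 and 142 CPM in C57BL/6J (-6.38, SE 0.28, adjusted p 2.13e-19). Ugt2b38, which like it shares sequence with Ugt2b5, averaged 1439 ± 145 CPM in NZO and 1429 ± 207 CPM in C57BL/6J, and the sum of Ugt2b37, Ugt2b38 and Ugt2b5 did not pass the test (-0.20, adjusted p 0.305). Ugt2b34 was lower by 2.65 on the log2 scale (adjusted p 2.97e-16). Over the 22 glucuronosyltransferase and sulfotransferase genes tested, 11 were higher and 5 lower (14.2% and 13.7% of all genes).

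Of 44 glutathione and antioxidant genes, 17 were lower (13.7% of all genes) and 8 higher (14.2%), with a median of -0.19. The split followed the glutathione transferase classes in part. The mu class genes Gstm7 (2.92), Gstm4 (1.35) and Gstm1 (1.00) were higher, and Gstm1 had 685, 660, 637 and 644 CPM in NZO, against 337, 364, 327 and 281 CPM in C57BL/6J (SE 0.08, adjusted p 3.35e-13). The alpha class genes Gsta2 and Gsta3 were lower. Gsta2 had 6.38, 6.21, 5.17 and 6.66 CPM in NZO, against 94.7, 136, 105 and 66.2 CPM in C57BL/6J (-4.06, SE 0.31, adjusted p 1.29e-12), and Gsta3 averaged 8.92 ± 0.992 CPM in NZO and 53.3 ± 4.89 CPM in C57BL/6J (-2.52).

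Nfe2l2, which codes for NRF2, the factor that switches on many antioxidant genes, had 58.4, 55.5, 54.9 and 56.7 CPM in NZO, against 76.6, 106, 86.0 and 85.0 CPM in C57BL/6J (-0.61, SE 0.08, adjusted p 1.45e-07). Its target Nqo1 averaged 16.3 ± 1.18 CPM in NZO and 34.5 ± 9.44 CPM in C57BL/6J (-1.05, adjusted p 1.79e-07). Gpx3, the secreted glutathione peroxidase for which kidney is the main source, had 10200, 9220, 7710 and 9550 CPM in NZO, against 12400, 15900, 14100 and 13100 CPM in C57BL/6J (-0.58, SE 0.08, adjusted p 1.96e-07). Peroxiredoxin Prdx1 was lower by 0.60 on the log2 scale.

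Genes of the respiratory chain divided by genome. Of 31 nuclear subunits 23 were higher in NZO (14.2% of all genes) and 0 lower by edgeR's quasi-likelihood test. Their median was 0.21, and 30 of the 31 had a positive log2 fold change. At an unadjusted p under 0.05, 26 were higher and 0 lower, while DESeq2 called 23 higher and limma-voom 21, with 0 lower in both. Each difference was small. Sdhd had 256, 225, 222 and 219 CPM in NZO, against 207, 189, 189 and 179 CPM in C57BL/6J (log2 fold change 0.27, SE 0.05, adjusted p 5.68e-05), and Atp5o averaged 219 ± 24.4 CPM in NZO and 170 ± 6.48 CPM in C57BL/6J (0.37). NZO library 1 was the highest for Sdhd, Atp5o, Uqcrc1 and Cox4i1, and 13 of the 31 were called without it. In the run at 89 alone, which has fewer libraries, 3 were called higher and 0 lower. Of 13 genes of the mitochondrial genome 8 were lower (13.7% of all genes) and 0 higher, with a median of -0.40. The same counts came from DESeq2, limma-voom and an unadjusted p under 0.05.

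The lower mitochondrial genes code for complex I subunits and Atp6. mt-Nd5 had 6130, 7850, 8970 and 7300 CPM in NZO, against 13700, 14300, 14700 and 13100 CPM in C57BL/6J (-0.89, SE 0.11, adjusted p 1.64e-08). mt-Nd2 was lower by 0.67 and mt-Nd1 by 0.42 on the log2 scale, without overlap between the strains. mt-Co1, a subunit of complex IV, had a log2 fold change of -0.07 and was not called (adjusted p 0.427). Mitochondrial genes took 10.69% to 11.95% of the counts in NZO libraries and 13.1% to 13.84% in C57BL/6J libraries (exact permutation p 0.0286, the smallest that 4 against 4 allows, and 0.0714 adjusted over 20 measures).

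The androgen-responsive and male-biased genes did not move one way, with 6 of 30 higher and 5 lower, 36.7% called against 27.9% of all genes. Kap, the androgen-regulated kidney protein and one of the most abundant transcripts, had 31200, 26200, 24300 and 23400 CPM in NZO, against 18400, 16800, 17800 and 17100 CPM in C57BL/6J (log2 fold change 0.58, SE 0.10, adjusted p 1.87e-05). Odc1, the polyamine enzyme, was lower (-0.76, adjusted p 0.0335, not called in 5 of the 8 fits that leave out 1 library). Akr1c18, which inactivates progesterone, was 2.91-fold higher, and Akr1c14, a hydroxysteroid dehydrogenase, 1.62-fold higher. Hao2, a peroxisomal hydroxy acid oxidase, had 1140, 1010, 776 and 850 CPM in NZO, against 152, 275, 198 and 196 CPM in C57BL/6J (2.17, SE 0.22, adjusted p 6.73e-10).

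Of 20 insulin signalling genes 3 were higher and 5 lower, 40% called against 27.9% of all genes, and the share higher was close to the 14.2% of all genes. Igf1 averaged 7.42 ± 1.45 CPM in NZO and 11.8 ± 1.41 CPM in C57BL/6J (-0.71, adjusted p 4.72e-05). Its binding proteins went both ways, with Igfbp3 at 106 ± 8.27 CPM in NZO and 201 ± 7.39 CPM in C57BL/6J (-0.94, adjusted p 3.57e-10) and Igfbp4 at 731 ± 87.0 CPM in NZO and 493 ± 14.9 CPM in C57BL/6J (0.59, adjusted p 3.06e-06). Irs1 (-0.50) was lower, and the insulin receptor Insr was lower by 0.20 (adjusted p 0.0317, not called in 5 of the 8 fits that leave out 1 library).

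Of 20 genes of tubular injury and repair 3 were higher and 1 lower, 20% against 27.9% of all genes, and 12 of the 20 had log2 values below 0 (median -0.10). The adhesion molecule Vcam1 (0.60), the transcription factor Sox9 (1.46) and the receptor Tnfrsf12a (0.83) were higher and the integrin subunit Itgb6 (-0.55) was lower, with Vcam1 at 16.9, 16.1, 16 and 20.3 CPM in NZO, against 11.6, 11.5, 11.9 and 10.3 CPM in C57BL/6J (adjusted p 0.00302). Itgb6 was not called without NZO library 3. Lcn2, a marker of tubular damage, was not called (0.31, adjusted p 0.763). None of 16 cell cycle genes was called by edgeR's quasi-likelihood test (27.9% of all genes), and none by DESeq2 or limma-voom. At an unadjusted p under 0.05, 1 was higher in NZO. The log2 values of 13 of the 16 were above 0 and of 3 below (median 0.25).

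Marker genes of several kidney compartments were lower in NZO. The 8 thick ascending limb markers summed to 4821 to 5253 CPM in NZO and 6204 to 6878 CPM in C57BL/6J, and the 10 intercalated cell markers to 240 to 274 CPM in NZO and 320 to 330 CPM in C57BL/6J. The 8 principal cell markers summed to 282 to 303 CPM in NZO and 336 to 389 CPM in C57BL/6J, and the 10 stromal and mural markers to 167 to 229 CPM in NZO and 268 to 317 CPM in C57BL/6J. None of these ranges overlapped, and each gave an exact permutation p of 0.0286 (0.0714 adjusted over 20 measures). No marker of these 4 lists was called higher by edgeR's quasi-likelihood test, DESeq2 or limma-voom. None had a positive change at an unadjusted p under 0.05. In the order given edgeR called 5, 6, 7 and 6 lower, whereas 13.7% of all genes were lower. The thick ascending limb count was 3 without C57BL/6J library 2, NZO library 3 or NZO library 4.

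Egf, a growth factor made in the thick ascending limb and distal tubule, had 1440, 1500, 1310 and 1240 CPM in NZO, against 2120, 2240, 2120 and 2120 CPM in C57BL/6J (log2 fold change -0.64, SE 0.09, adjusted p 1.68e-07). Uromodulin, Umod, averaged 2103 ± 111 CPM in NZO and 2796 ± 218 CPM in C57BL/6J (-0.38, adjusted p 7.13e-05). The sodium channel subunits Scnn1b (-0.31) and Scnn1g (-0.48) were lower, whereas the water channel Aqp2 was not called (-0.32, adjusted p 0.296). Slc4a9, a bicarbonate carrier of beta intercalated cells, was lower by 0.79. In stroma Pdgfra (-0.71) and Col1a2 (-0.66) were lower. Among the 8 distal convoluted tubule markers the kinase Wnk1 (-0.27) and the sodium chloride carrier Slc12a3 (-0.23) were lower and 1 was higher. That was 37.5% called, against 27.9% of all genes. Wnk1 was not called without NZO library 1, and Slc12a3 in 3 of the 8 fits that leave out 1 library. The higher marker was the calcium buffer Pvalb, at 43.5, 34.3, 34.6 and 37.0 CPM in NZO, against 8.73, 10.5, 9.26 and 9.90 CPM in C57BL/6J (2.00, SE 0.14, adjusted p 9.42e-15).

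The 14 proximal tubule markers summed to 42900 to 48180 CPM in NZO and 37900 to 39830 CPM in C57BL/6J. The androgen-regulated Kap, with the levels given above, made up a large part of each sum, so the higher NZO sum does not describe the list. The median log2 fold change of the 14 was 0.03, with 7 above and 7 below 0. Only 3 were called (21.4%, against 27.9% of all genes), Kap higher and Slc34a1 and Slc27a2 lower. Podocyte, endothelial and distal convoluted tubule sums overlapped between the strains, with exact permutation p of 0.2, 0.229 and 0.314. Single markers nevertheless differed. Of 10 podocyte markers 2 were called higher and 4 lower (60%, against 27.9% of all genes), with a median of -0.15. Of 8 endothelial markers 1 was called higher and 2 lower (37.5%), and 7 had log2 values below 0 (median -0.18). With 1 library left out the called endothelial markers numbered 1 to 6. Whether the shares of these cells moved the gene lists above was not tested. The plasma protein carrier gene Ttr was higher (1.75, adjusted p 1.34e-05) at 197 ± 35.1 CPM in NZO and 56.1 ± 6.54 CPM in C57BL/6J.

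**Figure D4:**
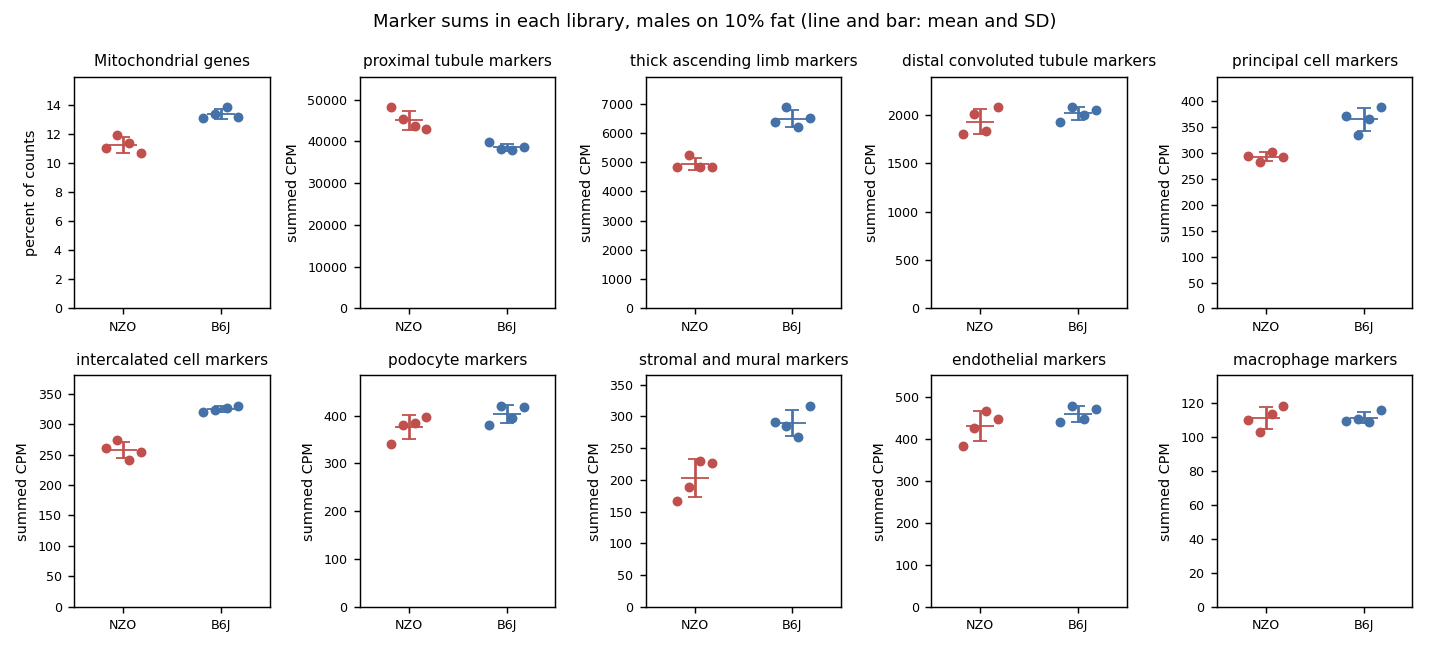
Share of counts in mitochondrial genes and summed CPM of the markers of 9 cell types in each library of males on 10% fat, with NZO left of C57BL/6J (B6J), 1 point per library and the mean with its SD (n = 4 each), on axes that start at 0. The thick ascending limb, principal cell, intercalated cell and stromal sums of NZO lie below all C57BL/6J libraries, and the macrophage sums overlap.

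The same strain contrast was then taken between other groups. Their libraries are not in the means of the males on 10% fat, but all 47 libraries shared the estimates of spread and of the ID run. In females on the same diet 4169 genes were called between the strains (22.2%), and in males on 44% fat 5764 (30.7%). Of the 5250 genes called in males on 10% fat, 4808 had the same direction in females (91.6%, against 71.3% of all genes) and 2711 were called there in that direction, which is 51.6% of the male calls and 65% of the female calls. In males on 44% fat 5079 had the same direction (96.7%, against 76.4% of all genes) and 3644 were called in it, which is 69.4% of the calls on 10% fat and 63.2% of those on 44% fat. Calls in both other comparisons and in the same direction were made for 2337 genes (44.5%). Cfb had a log2 fold change of -5.79 in females and -5.95 in males on 44% fat, Mep1a -4.48 and -5.18, and Hmgcs1 -1.10 and -1.23.

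The difference between the male and the female strain contrast was itself called for 388 genes (2.07%), 173 higher in males (0.921%) and 215 lower (1.14%). Akr1c21, a hydroxysteroid dehydrogenase, averaged 798 ± 88.4 CPM in NZO males and 1081 ± 92.2 CPM in C57BL/6J males, and 6.82 CPM in NZO females and 562 CPM in C57BL/6J females. The strain contrast was thus -0.43 in males and -6.39 in females, with an adjusted p of the difference of 1.7e-22. Ugt1a9 and Chil4 were among the genes with the most positive difference, with log2 fold changes of 9.45 and 6.83 in males and 1.45 and -0.69 in females, though Ugt1a9 had no count in C57BL/6J males and its level in NZO males was at least 19.6-fold higher. Ugt2b37 (-6.38 in males, -1.95 in females), Cacna1i, Trpc4 and Apol10b had the most negative ones, and the last 3 were under 1 CPM in the males of both strains.

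Several results above differed by sex. Of the 35 fatty acid oxidation genes 20 were called in males (57.1%, against 27.9% of all genes) and 8 in females, near the 22.2% of all genes called there. The test of the difference called 7 of the 35 (2.07% of all genes). Acadl had log2 fold changes of -0.54 in males and 0.10 in females (adjusted p of the difference 2.93e-05), and Cyp4a10 -1.52 and 0.37 (0.00226). Agt was lower in both sexes, with -6.05 in males and -3.60 in females (adjusted p of the difference 7.15e-06). Hsd3b2 was higher in both, by 1.44 in males and by 2.89 in females (adjusted p of the difference 4.82e-09). Mas1 had 1.70 in males and -0.52 in females (0.00696). For the interferon list the test of the difference called 1 gene, Gbp10.

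**Figure D5:**
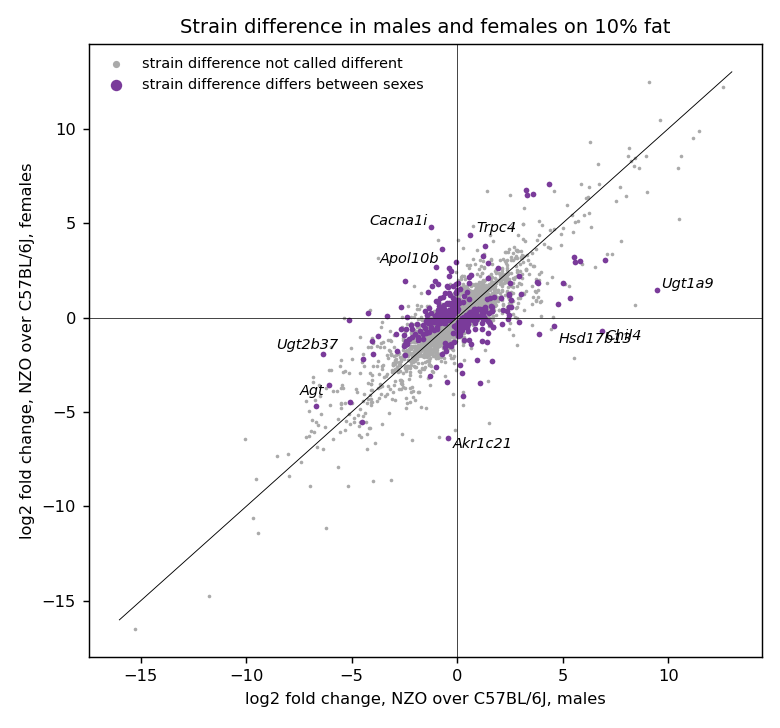
Log2 fold change of NZO over C57BL/6J in males (horizontal axis) and in females (vertical axis), both on 10% fat, for genes called in either sex (grey), with the 388 genes called in the test of the difference in purple and the line of equal change. Akr1c21 lies near 0 in males and at -6.39 in females, and Cacna1i at 4.79 in females.

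Between the diets the male strain contrasts differed for 0 genes at adjusted p under 0.05 by edgeR's quasi-likelihood test, with 1521 genes at an unadjusted p under 0.05. DESeq2's Wald test called 13 genes, limma-voom 3 and limma on the variance-stabilized matrix 2. Single contrasts nevertheless had different values. Ces1g, a carboxylesterase, averaged 48.9 ± 15.8 CPM in NZO and 6.27 ± 3.12 CPM in C57BL/6J on 10% fat, a log2 fold change of 2.92 (adjusted p 5.26e-07), and had 0.34 on 44% fat (adjusted p 0.574), with an adjusted p of 0.199 for the difference.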

How the data were processed

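PolyA RNA from whole kidney was sequenced in 47 libraries of 12 groups by strain, sex and diet, per the labels' protocols. The deposited table holds expected counts per gene, with fractions where reads fit several genes. The submitters' processing notes name GRCm38 and DESeq2 without a role, and the aligner, the counter and its use of strand are not given in the sources used here. The authors also deposited variance-stabilized values on a log2 scale, used here only as an alternative. A deposited annotation gives gene starts and ends, read here as other values in megabases.

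Expected counts were rounded. Genes passing filterByExpr over the 12 groups were fitted in all 47 libraries with edgeR 4.0.16 (R 4.3.3), using TMM scaling, group means, a term for the ID run and the robust quasi-likelihood test. P-values were adjusted by Benjamini-Hochberg over 18786 genes and called under 0.05. The depth of 34394546 to 48075272 counts sets how small a difference could be called. The test was checked on simulated counts. Summed markers were compared by 2-sided exact permutation tests, Benjamini-Hochberg adjusted over 20 measures. Transcripts for shared sequence were those of GENCODE M21. Alternatives used limma 3.58.1, DESeq2 1.42.0, other filters and scalings, fewer libraries and summed copies.

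Genes were named by rule, from candidates called without overlap between the strains and with at least 1 CPM in one of them. The rule took the 12 highest and 12 lowest log2 fold changes with at least 10 counts in both strains, the 6 most abundant in each direction that were under 10 counts in the other strain, and the 6 most abundant in each direction with a fold of 1.5. It also took up to 5 members of each list by adjusted p, members completing a role, and the 4 highest and 4 lowest of each difference test. Not every gene the rule allows is described, and others were chosen after their values were seen. Some members of the lists are counted but not reported here. The members and lists were chosen with earlier results of these data known.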

Additional observations from a re-analysis of the deposited data

Results flagged for a closer look

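Among the 178 genes described, 40 had a strain contrast that differed between males and females on 10% fat in edgeR's quasi-likelihood test (adjusted p under 0.05 over all genes). Over all genes 2.07% did. The naming rule took the 4 highest and 4 lowest differences, so the count of 40 was partly set by that choice. Each value here is the log2 fold change of NZO over C57BL/6J in males minus that in females. The steroid and retinoid enzymes Akr1c21 (5.96), Aldh1a1 (2.83), Akr1c18 (1.87) and Hsd3b2 (-1.45) were among the 40. So were the conjugating enzymes Ugt1a9 (8.005), Ugt1a10 (3.97), Ugt1a7c (1.83), Gstm7 (0.72), Gsta3 (-1.58), Ugt2b34 (-2.04), Ugt2b5 (-2.73), Gsta2 (-2.84) and Ugt2b37 (-4.43). Lipid genes in this set were Hao2 (1.78), Fads1 (0.41), Cpt2 (-0.59), Acadl (-0.63), Sc5d (-0.66), Acaa2 (-0.75), Plin2 (-1.06), Idi1 (-1.34) and Cyp4a10 (-1.89).

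The angiotensin genes were Mas1 (2.21), Enpep (0.31), Mme (-0.79) and Agt (-2.46). Immune and clotting genes were Ptpn22 (3.18), C4a (2.64), Cpb2 (2.32), the macrophage receptor gene Csf1r (0.49) and Gbp10 (-2.27). The others were Chil4 (7.53), Zfp365 (4.29), Ces1g (3.15), Fbp2 (0.68), Mep1a (-0.58), Angptl7 (-2.72), Apol10b (-3.65), Trpc4 (-3.74) and Cacna1i (-6.04). For Mep1a and Angptl7 the strain contrast had the same direction in both sexes and a large size in each, so the difference concerns size alone. Other genes of this set, such as Aldh1a1, Cpb2 and Agt, also kept their direction. In some, such as Mas1 and Akr1c18, the contrasts of the sexes had opposite signs.

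In some groups of 4 libraries a single library stood apart from the other 3, with a gap to its nearest neighbour above the 95% critical value of Dixon's test. This held for 28 of the 391 groups checked (7.16%), and chance flags about 1 in 20. NZO library 1 was high for Cfd (0.575 CPM), Car3 (2.74 CPM), the summed brown adipocyte markers (1.51 CPM), Prdx1 (509 CPM), Sdhd (256 CPM) and Ugt1a7c (168 CPM), and low for Sc5d (7.85 CPM). NZO library 2 was high for Idi1 (106 CPM) and the summed thick ascending limb markers (5253 CPM) and low for Agtr1a (40.2 CPM). NZO library 3 was high for Irgm1 (48.5 CPM) and the summed red blood cell markers (1683 CPM). NZO library 4 was high for Abcb1b (42.0 CPM) and C2 (3.18 CPM) and low for Lpl (293 CPM), Scnn1g (23.7 CPM) and Mx2 (0.0215 CPM).

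Of the C57BL/6J libraries, library 1 was high for Acadl (333 CPM). Library 2 was high for Egf (2240 CPM), Mme (272 CPM), Irf7 (12.6 CPM), Cfi (7.35 CPM) and Ugt1a10 (1.42 CPM) and low for Sqle (65.5 CPM) and Mas1 (0.571 CPM). It was also the only library of these 8 in the ID run at 81. Library 4 was high for Col1a2 (69.7 CPM), Iigp1 (38.4 CPM) and F830016B08Rik (4.29 CPM).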

How the results depend on the processing

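The 5250 genes called between the strains became 3157 when the 8 libraries were fitted alone, 912 in the ID run at 77, 2758 in the run at 89 and 1037 against a fold of 1.5. Fewer libraries or a stricter null were part of each of these settings. The other scalings, filters and tests gave 5040 to 5469, 4390 were called without genes sharing 20% or more of their sequence, and leaving out 1 library gave 4230 to 5207. The 388 genes of the sex difference became 354 to 486, and 295 to 431 with 1 library left out. For the diet difference the 0 calls became 1 without the ID run term, 13 by DESeq2's Wald test, 3 by limma-voom, 2 on the deposited log2 values and 0 to 17 with 1 library left out, 17 without library 2 of the NZO males on 44% fat. The cause was not tested. Of 3684 recomputed gene values 3406 kept direction and call, and 39 changed sign. With copies summed (chosen after seeing the data), which assigns each gene its family's value, these were Ugt1a10 and Ugt1a9 (-0.37), Rnaset2a (-0.12), Tpm3-rs7 (-0.0666), Hist2h2aa2 (-0.21), Ugt2b38 (-0.20), Pgk1 (0.10) and Hba-a2 (0.55). In the run at 77 the sign changed for Trpc4 (-0.39), Itgb6 (0.0635), Ifih1 (-0.0215), Tbc1d1 (0.0019), Isg15 (0.39), Ugt2b38 (-0.12), Zfp69 (-0.11) and Hba-a2 (0.17). In the run at 89 it changed for Cacna1i (1.39), Abcg1 (-0.0407), Irf7 (0.13), Isg15 (0.13), Stat2 (0.10), Lepr (0.22) and Ugt2b38 (-0.10), and in the 8 libraries alone for Irf7 (0.0161), Isg15 (0.23) and Ugt2b38 (-0.11). With 1 library left out the values ranged through 0 for Abcg1 (-0.0759 to 0.31), Ifih1 (-0.0276 to 0.0737), Isg15 (-0.21 to 0.23), Lepr (-0.38 to 0.022), Ugt2b38 (-0.0797 to 0.11) and Zfp69 (-0.16 to 0.19). No paired analysis was possible because the labels give no replicate numbers and the numbers used here follow accession order. The floor of 3 counts limits folds where a strain has no count. At 4 libraries a strain 42% of simulated 1.25-fold changes were recovered among genes with a mean log2 CPM of at least 1. The cut-off was stricter there because fewer genes were called.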
